A study of Mus musculus with 2 samples.

Results

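Heterotrimeric G proteins and their RGS regulators were described in cultured mouse hippocampal cells after block of sodium channels. The members were all genes whose array symbol is that of a Gα subunit (Gnas, Gnal, Gnai, Gnao1, Gnaz, Gnat, Gnaq and Gna11 to Gna15), a Gβ subunit (Gnb1 to Gnb5), a Gγ subunit (Gng or Gngt with a number) or an RGS gene (Rgs with a number). They comprised 91 of the 55681 probes and 56 of the 22146 named genes on the array, namely 16 Gα, 17 Gβ or Gγ and 23 RGS genes. The rule uses symbols and no threshold on a value, but it was set with earlier results of these data known. The tested culture was kept for 2 days with tetrodotoxin (TTX), a toxin that blocks voltage-gated sodium channels and thereby action potentials, and the control culture was not. Each was a dissociated hippocampal culture from ICR mouse embryos of embryonic day 16.5, taken at 12 days in vitro, and both were given 5 µM Ara-C against dividing glia and 5.5% serum. The submitters give the TTX dose as 2 µM in their design text and as 2 mM in a source label. With 1 single-colour Agilent array per group, no difference below has a replicate check, no test was made between the cultures, and precision is limited by this number.

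A G protein couples a receptor of the cell surface to channels and enzymes inside the cell. When an agonist binds the receptor, the Gα subunit exchanges GDP for GTP, and GTP-bound Gα and the Gβγ dimer each act on targets such as adenylyl cyclase, phospholipase C and potassium channels until Gα hydrolyses its GTP. RGS proteins (regulators of G protein signalling) speed that hydrolysis and so shorten the signal. In neurons they set how long receptors for glutamate, GABA, acetylcholine, opioids and monoamines hold their grip on excitability and transmitter release.

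Spots well above background made up 52.2% of the TTX array and 54.2% of the control array. Of the 56 members, 45 were above background on both arrays and are called measured. Another 2 were above background in the TTX culture alone, 1 in the control culture alone, and 8 on neither array. Those 8 were Gnat1 and Gnat3, transducin-class α subunits of rods and taste cells, Gngt1, the rod γ subunit, Rgs1, Rgs18 and Rgs21 of the R4 subfamily, Rgs22, and Rgs9bp, an anchor of Rgs9 in photoreceptors. The immediate early gene Arc had a signal of 127 in TTX and 4641 in control, and Fos, Npas4 and Bdnf had log2 differences of -2.61, -3.53 and -2.37. All differences are log2 values, TTX minus control, of quantile-normalized signal at the brightest measured probe of a gene. Since levels at different probes cannot be compared, signals are set side by side only within a probe, or as a sum over the same probes on both arrays.

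At least 2-fold lower in TTX were 6 of the 45 measured members, against 3.4% of all 14016 measured genes, and 1 member was at least 2-fold higher, against 2.09%. With a 1.5-fold rule 12 members were lower (8.64% of all genes) and 1 was higher (7.66%), and 27 members were below 0 (48.8% of all genes). The lower ones were 5 RGS genes of the R4 subfamily (Rgs2, Rgs4, Rgs8, Rgs13 and Rgs16) and the γ subunit gene Gng4, and the higher one was Rgs17. No Gα or Gβ gene measured on both arrays differed by 2-fold. The median difference was 0.22 over 12 Gα genes, -0.06 over 15 Gβ and Gγ genes and -0.36 over 18 RGS genes, beside 0.01 over all measured genes. In bulk RNA, fewer cells that express a gene and less of its RNA per cell cannot be told apart.

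The R4 subfamily holds small RGS proteins that are little more than an RGS domain with a short amphipathic amino-terminal stretch. Of its 7 measured members, 5 were at least 2-fold lower, 1 was lower by less and 1 was slightly higher, with a median of -1.53. Rgs4, which acts on Gi, Go and Gq and dampens metabotropic glutamate and muscarinic signalling, had a signal of 941 in TTX and 7270.5 in control, a log2 difference of -2.95 or 7.72-fold lower. Its other probe, 0.938 kb away across their outer ends, gave 643.5 in TTX and 6354 in control (-3.30). Among all 14016 measured genes its difference ranked 26 from the lowest. Both Rgs4 probes were thus low in TTX by a similar factor.

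Rgs8, a brain RGS protein known to speed the opening and closing of G protein-gated potassium channels, had a signal of 984 in TTX and 4311 in control (-2.13, 4.38-fold lower). Its dimmer probe gave 33.4 in TTX and 87.4 in control (-1.39), the same direction with a smaller difference. Rgs2, which prefers Gq and whose transcript is known from activity screens in brain, had a signal of 3985 in TTX and 13907 in control (-1.80, 3.49-fold lower). Its dimmer probe agreed closely with that difference, with 75.01 in TTX and 269 in control (-1.84). The Rgs8 and Rgs2 differences ranked 74 and 113 from the lowest among all measured genes.

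Rgs13 and Rgs16 were lower by smaller amounts, each at 1 probe. Rgs13, best known from B cells and mast cells, had signals of 44.0 in TTX and 127 in control (-1.53). Rgs16, an inducible regulator of Gi and Gq signalling, had 310.4 in TTX and 650.3 in control (-1.07), the member just inside the 2-fold rule. Both fell short of 2-fold with normexp background correction, at -0.76 for Rgs13 and -0.88 for Rgs16. The members just outside the rule on the lower side were Gng13 (-0.87) and Rgs10 (-0.82). The remaining R4 genes were Rgs3, a longer R4 protein that also binds Gβγ, at 1172 in TTX and 1515 in control (-0.37), and Rgs5, a marker of pericytes that neurons also express, at 586 in TTX and 501 in control (0.23).

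**Figure D1:**
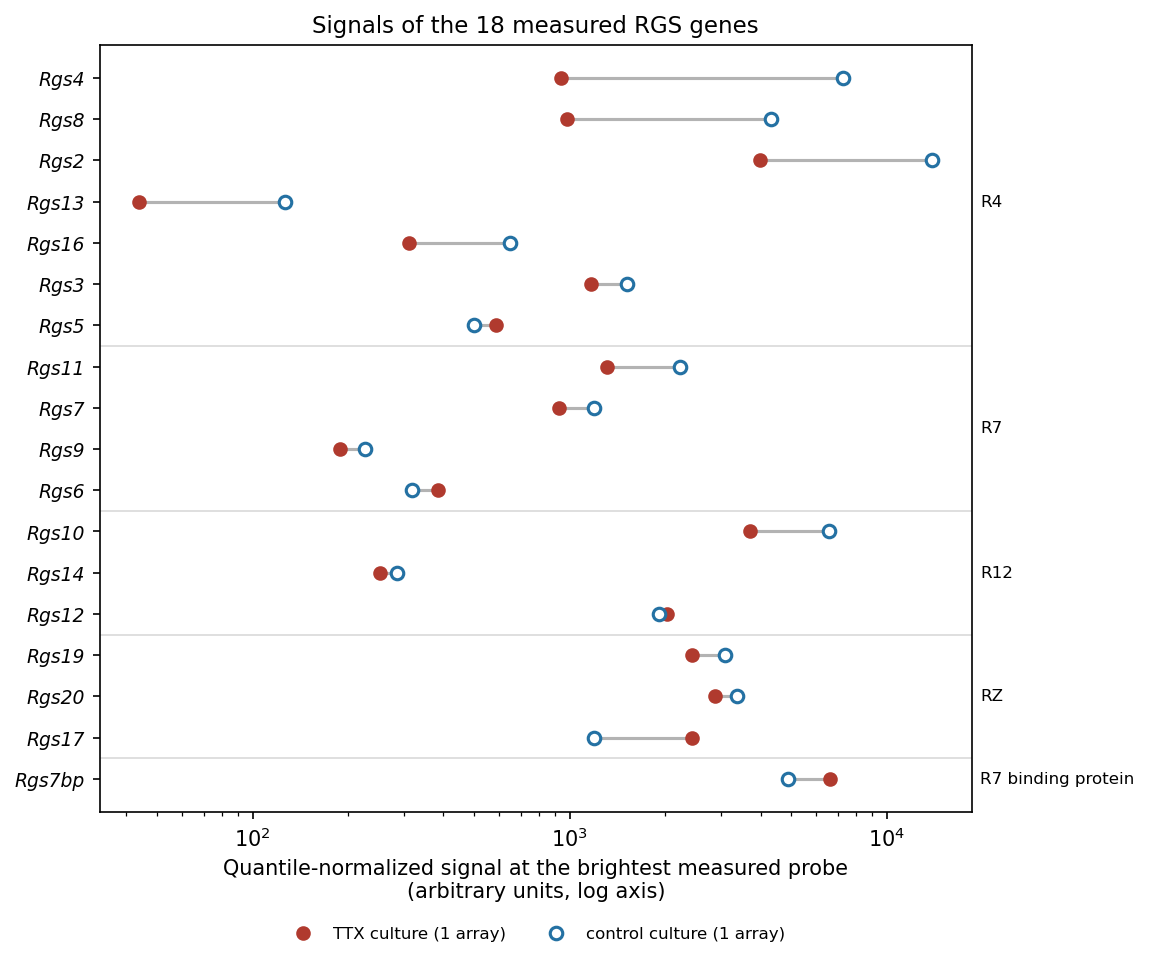
Quantile-normalized signal (log axis, arbitrary units) of the 18 measured RGS genes at their brightest measured probe, grouped by subfamily; filled points are the TTX culture, open points the control culture, 1 array each. Rgs4, Rgs8, Rgs2, Rgs13 and Rgs16 lie far to the left in TTX, while Rgs17 lies to the right of its control point.

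The 5 RGS genes that were at least 2-fold lower all lie on chromosome 1, as most of the R4 subfamily does. All 10 R4 genes except Rgs3 have their probes there, and the chromosome holds 11 members in all, 8 of them measured. By the probe coordinates of the array (build mm9), Rgs2 (chromosome 1, 145848830 to 145848889) is 137 kb from Rgs13 (145985824 to 145985883) in a cluster with Rgs1, Rgs21 and Rgs18, and Rgs8 (155544738 to 155544795) is 47.4 kb from Rgs16 (155592244 to 155592303). Rgs4 (171672488 to 171672547) is 49.4 kb from Rgs5 (171623021 to 171623080), so these neighbours had differences of -2.95 and 0.23. The measured chromosome 1 members other than the R4 genes, Rgs7 and Rgs20, had differences of -0.37 and -0.22. Nearness on the chromosome therefore did not come with a shared difference in every case. Whether a probe falls in an exon, an intron or a UTR was not annotated here.

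The sequences before the transcription start of 4 lower members and of Rgs5, the close neighbour of Rgs4, are shown because activity-regulated genes of neurons are known to carry binding sites of CREB there. The 4 lower members were picked because the letters TGACG occur there, so their presence in these runs is not a result. Where a gene has several starts, the run with these letters was picked. Each run is the 250 bases before a start annotated by RefSeq (build GRCm38.p6), 5′ to 3′ on the strand of the gene, with the letters TGACG or their reverse complement, the core of the cAMP response element, in capitals.
Rgs4, chr1:169747643-169747892, minus strand: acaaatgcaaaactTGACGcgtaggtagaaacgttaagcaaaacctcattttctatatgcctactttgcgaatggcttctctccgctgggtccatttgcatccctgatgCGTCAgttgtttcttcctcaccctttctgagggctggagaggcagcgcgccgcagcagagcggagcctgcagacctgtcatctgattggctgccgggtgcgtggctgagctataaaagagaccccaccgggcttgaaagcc
Rgs2, chr1:144004150-144004399, minus strand: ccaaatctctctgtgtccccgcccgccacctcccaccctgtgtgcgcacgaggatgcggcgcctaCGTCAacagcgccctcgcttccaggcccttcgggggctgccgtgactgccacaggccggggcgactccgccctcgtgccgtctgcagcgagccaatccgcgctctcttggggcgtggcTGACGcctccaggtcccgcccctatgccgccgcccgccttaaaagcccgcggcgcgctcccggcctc
Rgs8, chr1:153652787-153653036, plus strand: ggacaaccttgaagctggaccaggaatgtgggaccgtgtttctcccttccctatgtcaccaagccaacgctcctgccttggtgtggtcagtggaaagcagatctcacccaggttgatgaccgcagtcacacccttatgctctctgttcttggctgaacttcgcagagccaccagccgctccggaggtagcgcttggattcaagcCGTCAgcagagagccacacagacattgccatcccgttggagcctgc
Gng4, chr13:13784057-13784306, plus strand: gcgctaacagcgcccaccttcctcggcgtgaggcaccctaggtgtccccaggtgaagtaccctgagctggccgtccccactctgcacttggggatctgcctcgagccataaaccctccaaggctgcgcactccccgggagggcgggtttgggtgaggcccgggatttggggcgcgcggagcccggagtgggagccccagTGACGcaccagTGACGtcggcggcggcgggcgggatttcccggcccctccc
Rgs5, chr1:169655251-169655500, plus strand: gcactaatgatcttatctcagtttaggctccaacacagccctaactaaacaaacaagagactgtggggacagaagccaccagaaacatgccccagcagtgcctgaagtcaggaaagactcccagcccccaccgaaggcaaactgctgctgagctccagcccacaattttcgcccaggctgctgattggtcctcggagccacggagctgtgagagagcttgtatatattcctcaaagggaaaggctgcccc
The core began 236 and 141 bases before the start of Rgs4 and 185 and 67 before that of Rgs2. It began 46 bases before the start of Rgs8, and 51 and 40 before that of Gng4. The Rgs5 run lacks the core, as do the windows of the lower members Rgs13 and Rgs16, so its absence there is not read as a contrast. Rgs8 has 3 annotated starts and Gng4 has 2, and the core was in 1 window of each.

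Motifs were searched on both strands over 300 bases, 250 before to 50 after each start, for which the RefSeq table had 54 windows of 41 members. TGACG was in 14 of the 54 windows and in 20.8% of all 32851 windows. Of the 6 members at least 2-fold lower, 4 had it in a window, while Rgs13 and Rgs16 did not. Of all 41 members with a window, 12 had it, among them Gnb1 and Rgs7bp, whose differences were 0.27 and 0.43. These 2 counts are of genes with the letters in any of their windows. The 20.8% is a share of windows and no base for them, and the share over all genes was not computed. The full palindrome TGACGTCA, which contains TGACG, was in none of the 54 windows and in 1.79% of all. The AP-1 site TGANTCA was in 4 windows of members (7.81% of all windows), Rgs17 among them, and the EGR site GCGNGGGCG in 6 (5.55% of all), Rgs2 among them. A match describes letters only and shows no binding.

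The R7 subfamily of RGS proteins works in complexes with the divergent β subunit Gnb5 and with a membrane anchor. Of its 4 measured genes none differed by 2-fold. Rgs11 had 1312 in TTX and 2226 in control (-0.76), Rgs7 had 924 in TTX and 1196 in control (-0.37), Rgs9 had 189 in TTX and 226 in control (-0.26), and Rgs6 had 386 in TTX and 317 in control (0.28). The 3 probes of Rgs6 spanned 0, from -0.27 to 0.28. Gnb5, without which R7 proteins are unstable, had 3080.0 in TTX and 4162 in control (-0.43, and -0.52 at its other probe). Rgs7bp, the anchor that carries R7 complexes to the membrane, was on the other side of 0, with 6610 in TTX and 4901 in control (0.43, and 0.34 at its other probe). The orphan receptor Gpr158, another anchor of Rgs7, had a difference of -0.18. The partners of this complex thus did not differ in 1 direction.

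In the R12 subfamily, whose larger members carry a GoLoco motif that holds Gi in its GDP state, Rgs10 had 3700 in TTX and 6554 in control (-0.82). Rgs14, a GoLoco protein of hippocampal area CA2, was at -0.18, and Rgs12 was at 0.08, of a sign that depended on the scaling. Rgs10 is expressed by neurons and by microglia. Of the 7 measured microglial and macrophage markers 5 were above 0, from -0.36 for Csf1r to 0.89 for Laptm5. The 3 probes of Csf1r spanned 0, from -1.08 to 0.27. Aif1, the other marker below 0, was read from a dim probe (21.7 in TTX and 22.5 in control). Laptm5 was read from a dim probe (32.1 in TTX and 17.3 in control, 0.27 to 1.035 over the settings tried). Tyrobp was at 0.60, while Cx3cr1 and P2ry12 were above background on neither array. The summed signal of the 7 was 21363 in TTX and 19233 in control. Most of it came from the Itgam probe (20323 in TTX and 18172 in control). The part of microglia in the Rgs10 difference was not tested.

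The RZ subfamily, which acts on Gz and Gi, held the only member at least 2-fold higher among those measured on both arrays. Rgs17 had 2441 in TTX and 1193 in control, a difference of 1.03 or 2.05-fold. It stood just inside the rule, and it fell to between 0.89 and 0.97 with 75th percentile, spike-in or no scaling and with normexp. The next members on the higher side were Gnai2 (0.53) and Gngt2 (0.48). The relatives of Rgs17 were slightly lower in TTX, Rgs19 at -0.34 (-0.34 to -0.26 over 3 probes) and Rgs20 at -0.22.

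The Gα subunits differed little. Of 12 measured genes 8 were above 0 (51.1% of all genes were), none of these 12 passed 2-fold, and 11 were within 1.5-fold. Among the inhibitory class, Gnai2 had 6819 in TTX and 4726 in control (0.53), Gnai1 3786 in TTX and 2872 in control (0.40), and Gnai3 2516 in TTX and 2076 in control (0.28). Gnao1, which encodes the abundant Go of neurons, lay on the other side, with 21734 in TTX and 27236 in control (-0.33, and -0.19 at its dim probe). Gnaz was at 0.09 and changed sign with the scaling.

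Gnaq and Gna11, which activate phospholipase C, were at 0.43 and 0.32. Their signals were 4805 in TTX and 3574 in control for Gnaq, and 5533 in TTX and 4448 in control for Gna11. Gna15, the Gq-class subunit of blood cells, was the exception among Gα genes, at -0.60 from a dim probe (37.1 in TTX and 56.1 in control). Gna12 and Gna13, which act on RhoGEFs, were at -0.15 and 0.16. The stimulatory Gnas was at -0.08, with signals of 65519 in TTX and 69255 in control, and Gnal, the olfactory and striatal relative that also raises cAMP, was at 0.37, with 7973 in TTX and 6153 in control.

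Gna14 and the cone transducin gene Gnat2 were above background in TTX alone. Gna14 had a signal of 65.3 in TTX and 8.94 in control, and against the control array's dimmest signal still well above background, 16.0, it was at least 4.08-fold higher in TTX. Its spot lay in row 144 of the 384 rows, and of the 194 genes on the array with such a bound of at least 2-fold, 177 had their spot in rows 1 to 192. Gnat2, in row 50, was at least 1.80-fold higher (28.8 in TTX and 10.8 in control). The part of spot position in these bounds was not tested. Of the photoreceptor markers, Opn1sw, Crx and Nrl were above background on neither array, and Pde6a was measured at 24.3 in TTX and 22.8 in control (0.09).

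**Figure D2:**
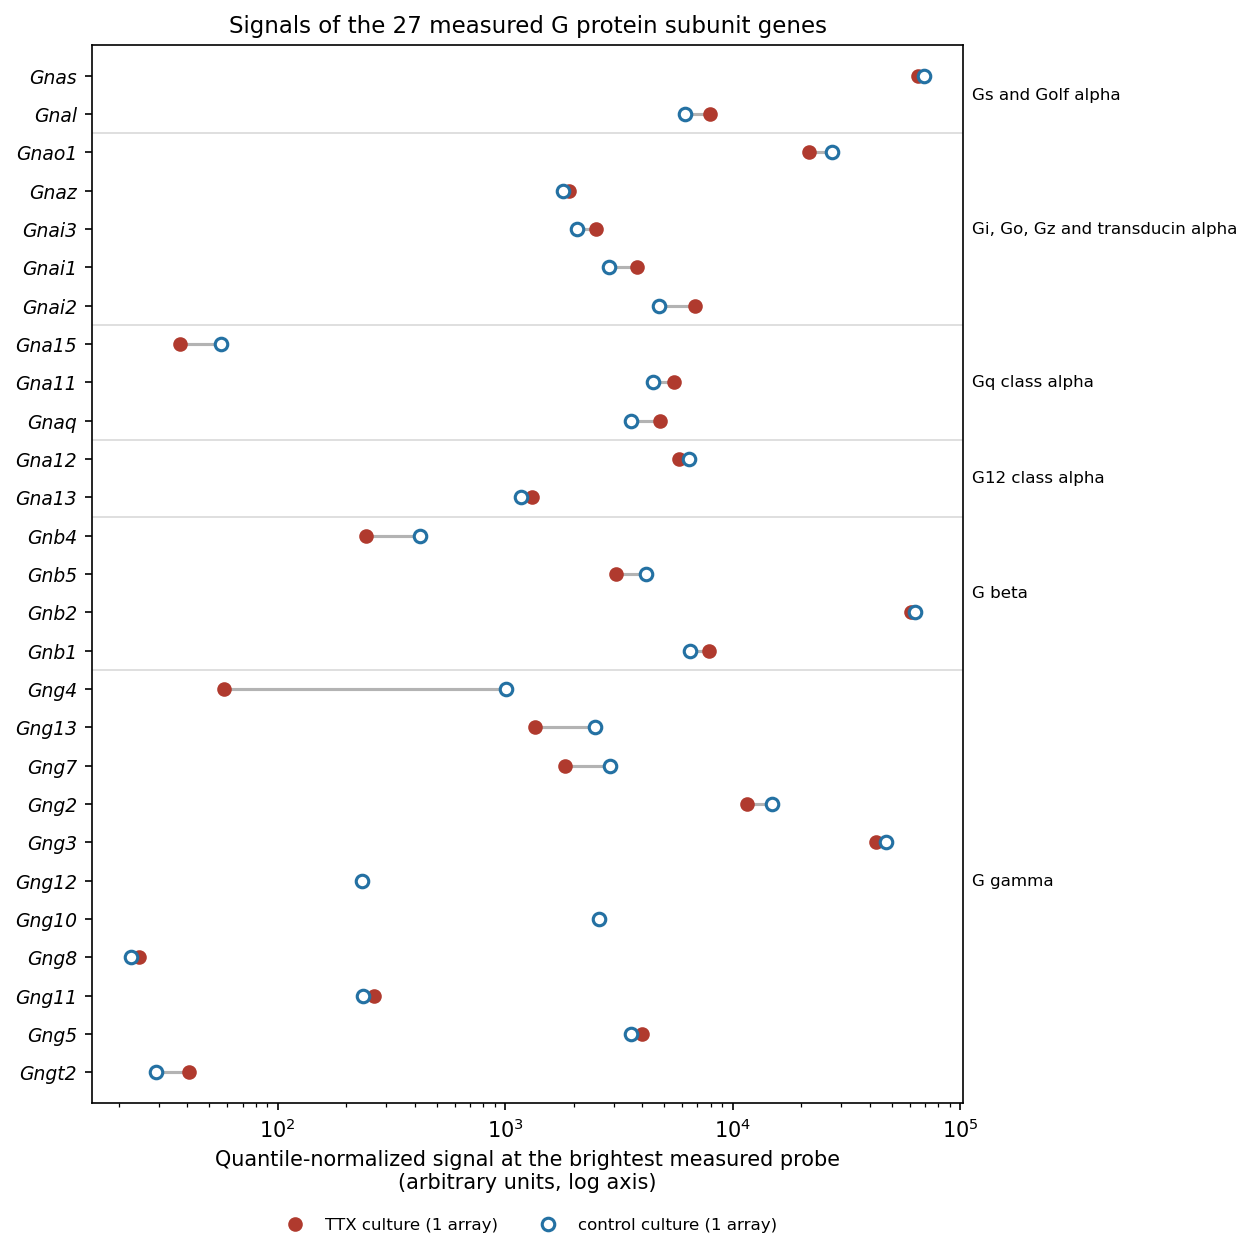
Quantile-normalized signal (log axis, arbitrary units) of the 27 measured G protein subunit genes at their brightest measured probe, grouped by class; filled points are the TTX culture, open points the control culture, 1 array each. The points of most genes nearly coincide, and Gng4 has the widest gap, 58.2 in TTX against 1009 in control.

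Of the 4 measured β subunits 3 were below 0 and none differed by 2-fold. Gnb4 had 245 in TTX and 424 in control (-0.79). The widely used Gnb1 and Gnb2 were at 0.27 and -0.06, and Gnb1 had 0.09 at its other probe. Gnb3, the cone β subunit, was above background in control alone (19.9 in TTX and 30.3 in control, at least 1.52-fold lower in TTX).

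Gng4 had the lowest difference of all members. This γ subunit, found mainly in brain, had a signal of 58.2 in TTX and 1009 in control, a difference of -4.12 that ranked 8 from the lowest among all measured genes (probe on chromosome 13, 13919304 to 13919363, mm9). At its other probe (13876731 to 13876790), which together with this one spans 42.6 kb, the signals were 77.3 in TTX and 194 in control (-1.33). Both Gng4 probes were more than 2-fold lower in TTX, but the sizes differ by 2.79 log2 units, the widest gap between probes of any member. A mean over its probes gives -2.72, and normexp background correction gives -3.26 for the gene.

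Another 3 γ genes were lower by less. Gng13, known from olfactory and taste signalling, had 1357 in TTX and 2482 in control (-0.87). Gng7, the partner of Golf in striatum, had 1832 in TTX and 2878 in control (-0.65, and -0.56 at its other measured probe), and Gng2, a common neuronal γ subunit, had 11539 in TTX and 14968 in control (-0.38). The neuronal Gng3, with 42604 in TTX and 47261 in control, was at -0.15. Gng5, Gng8, Gng10, Gng11 and Gng12 lay between -0.01 and 0.17, and Gng12, whose other probe gave -0.53, changed sign with the scaling. The cone subunit Gngt2 was at 0.48 from a dim probe (40.7 in TTX and 29.1 in control).

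**Figure D3:**
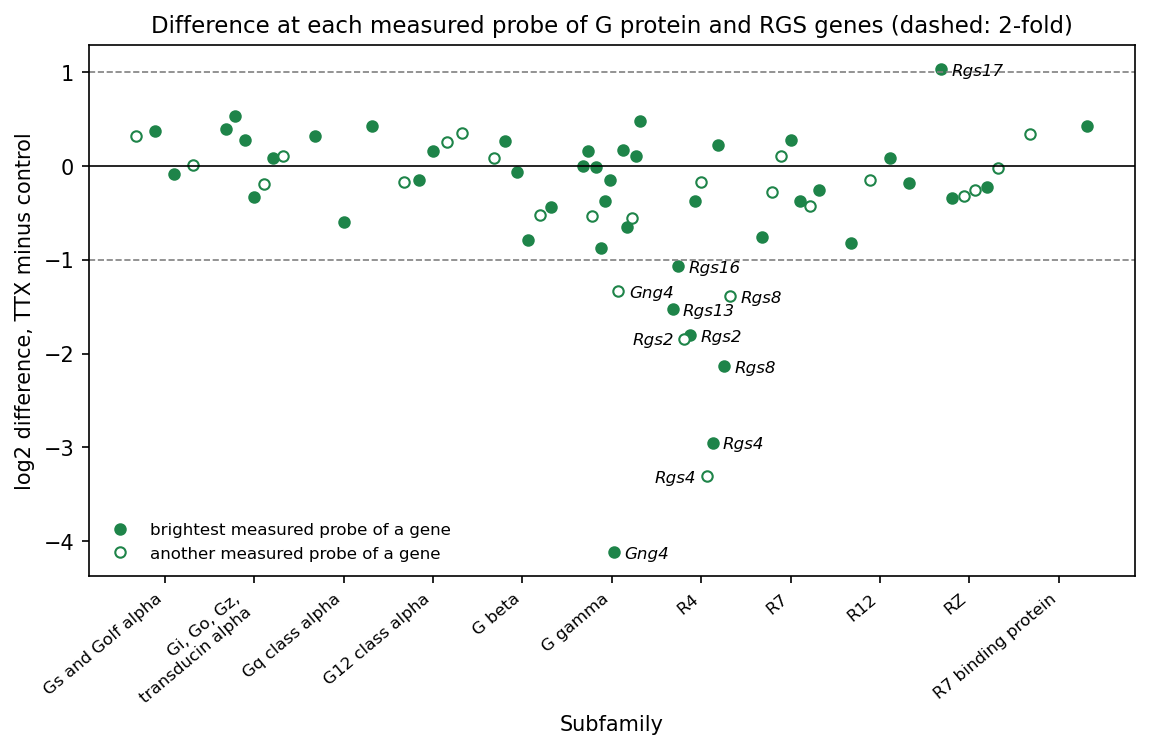
Log2 difference (TTX minus control) at each measured probe of the members, by subfamily along the horizontal axis; filled points are the brightest probe of a gene, open points its other probes, and dashed lines mark 2-fold. Genes past 2-fold are named: 5 R4 genes and Gng4 lie below -1 at every measured probe, and Rgs17 lies at 1.03.

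Where a member had several measured probes, these mostly gave similar values. Over 21 such genes the median range was 0.17, and 3 had probes on both sides of 0 (Gnas, Rgs6 and Rgs12). Precision within an array was read from 261 probes with 10 spots each, whose spot-level difference had a pooled SD of 0.15, from 0.06 in the brightest of 5 signal classes to 0.30 in the dimmest. The Feature Extraction error of a difference was about 0.20 at bright members (0.20 for Rgs4) and 0.25 for Rgs13. These errors cover spots and scanning only and leave out the spread between cultures.

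Genes that work with these proteins were taken from 4 lists. Of 45 listed genes 41 were measured, 2 were at least 2-fold lower (3.4% of all measured genes were), 2 were at least 2-fold higher (2.09%), and their median was 0.04. The first list held GoLoco proteins, Ric8 chaperones, Ras-like activators and phosducin-family genes. Among its 10 measured genes, 1 passed 2-fold: Gpsm1, a GoLoco protein, had 595 in TTX and 218 in control (1.45). The Gα chaperones Ric8a and Ric8b were both at 0.27. Among 9 receptor kinases and arrestins the retinal arrestin Sag was at -2.41 (25.5 in TTX and 136 in control, -2.43 to -1.08 over the settings tried). Its TTX signal lay near the dimmest one still well above background on that array, 19.7. Grk5 was at 0.77, and the arrestins Arrb1 and Arrb2, common in brain, were at 0.16 and 0.03. Arrb1 and Arrb2 both changed sign with the scaling.

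Among 12 effectors the RhoGEF gene Kalrn passed 2-fold (-1.23), though its 7 probes ran from -1.23 up to 1.16 and so did not share a direction. None of the 4 measured potassium channel subunits opened by Gβγ differed by 2-fold at its brightest probe: Kcnj3, at -0.80 (331 in TTX and 577 in control, and -1.13 at its other probe), was lowest, followed by Kcnj9 (-0.49), Kcnj6 (-0.23) and Kcnj5, a dim probe at 0.002 (26.8 in TTX and 26.8 in control). The phospholipase C genes Plcb1 and Plcb4 were at 0.15 and 0.24, of which Plcb1 changed sign with the setting. The list of RGS-domain relatives and R7 anchors, which also held Gprasp1 and Gprasp2, had 10 measured genes. The retinal Gpr179 was at 1.001 from a dim probe (37.5 in TTX and 18.8 in control, 0.28 to 1.14 over the settings tried). Axin2 was lowest at -0.82 (43.2 in TTX and 76.3 in control, -0.83 to -0.36 over the settings tried).

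Markers of the cell types in culture were read beside these values. The 7 neuron markers had a median of 0.07, with Rbfox3 at -0.81, Nefl at -0.61 and Tubb3 at 0.47, and their summed signal was 178168 in TTX and 180663 in control. Markers of neuron classes differed more widely and in both directions. Of 5 excitatory markers, Neurod6 was at -1.10 and Slc17a7 at -0.22, while Prox1 was at 1.02, Tbr1 at 0.97 and Slc17a6 at 0.74, and their summed signal was 18918 in TTX and 21775 in control. Of 4 inhibitory markers, Gad1 was at -0.70, Slc32a1 at -0.33, Gad2 at -0.11 and Dlx1 at 0.998, and their summed signal was 35851 in TTX and 45740.1 in control. Of 6 measured astrocyte markers 5 were above 0, with a median of 0.47 and a summed signal of 17393 in TTX and 11501 in control. Most of that sum came from Gfap (8423 in TTX and 4917 in control) and Mlc1 (6504 in TTX and 4457 in control). The marker below 0 was Aldh1l1, at -0.14. Pericytes express Rgs5, and the 4 measured markers of pericytes and smooth muscle were all above 0 (0.04 to 0.53). Their summed signal was 579 in TTX and 432 in control, most of it from Acta2 (363 in TTX and 252 in control). Anpep was read from a dim probe, and Kcnj8, Abcc9 and Myh11 were above background on neither array. Of 5 endothelial markers, Cdh5, Cldn5 and Tek were above background on neither array, while Pecam1 and Flt1 were measured from dim probes at -0.21 and -0.11. The other probe of Flt1 gave 0.22, and Flt1 changed sign with the setting. The part of cell composition in the differences of the members was not tested.

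**Figure D4:**
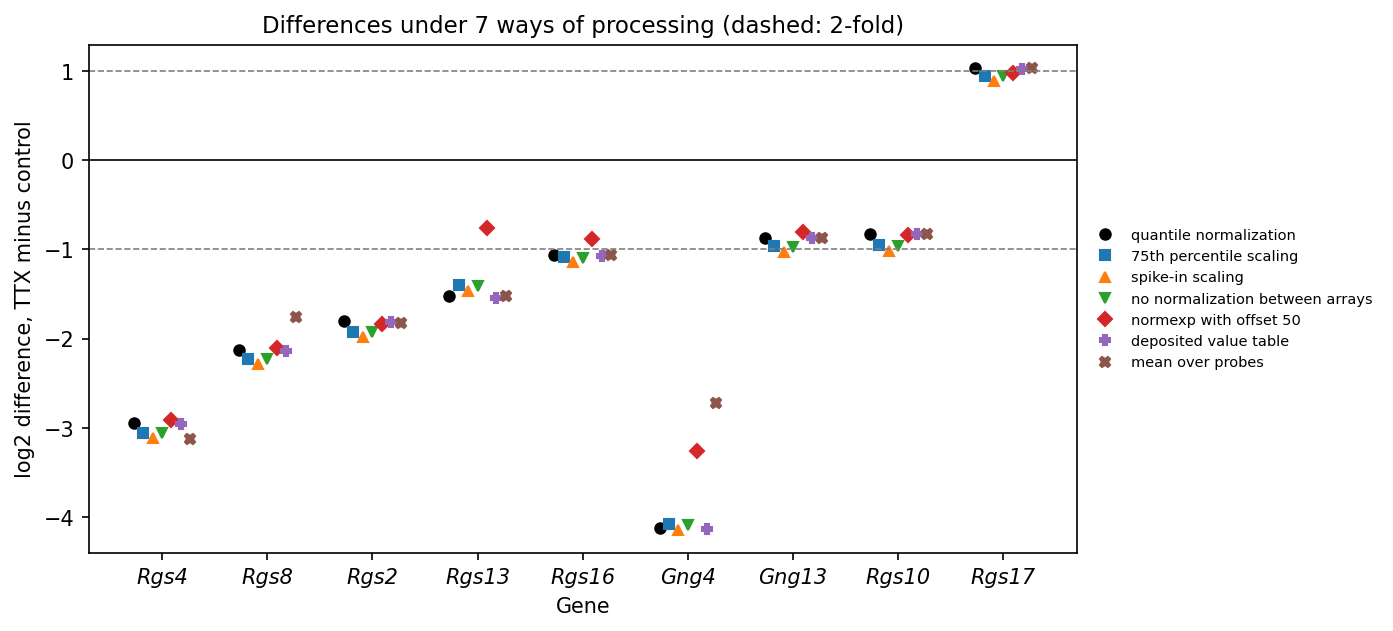
Log2 difference (TTX minus control, vertical axis) of 9 members under 7 ways of processing, given by symbols; dashed lines mark 2-fold. Rgs4, Rgs8, Rgs2 and Gng4 stay below -1 in all 7, Rgs13 and Rgs16 cross it with normexp, Gng13 and Rgs10 pass it with spike-in scaling, and Rgs17 lies within 0.15 of 1.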

How the data were processed

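Cy3-labelled total RNA of 2 cultures was read on 1 Agilent array per culture, per the labels. The deposited scanner files give each spot's linear intensity after background subtraction by Feature Extraction, version 10.7.1.1 per the file headers and 9.5.1.1 per the submitters' processing notes. The deposited value table holds linear intensity with equal medians on both arrays (24.9), quantile normalized according to the design text. Across 27398 probes, its differences and the present ones had a Pearson correlation of 0.9999.

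Here, of 59305 spots that were not controls, outliers (170 on TTX, 131 on control) were left out, none was saturated, and processed signals were quantile normalized, put on a log2 scale and averaged per probe. Probes counted as measured if a share of at least 0.5 of their spots passed the well-above-background flag on each array, and the brightest such probe stood for its gene. Symbols came from the files, updated through RefSeq (GRCm38.p6), in which 30848 of 55681 probes matched. The size rule was 2-fold, without a test. Members were chosen by symbol, and every member is accounted for; signals are given for those past 2-fold, near it, or with the largest differences of a subfamily. The members, lists and rules were chosen with earlier results of these data known. Steps were tested on simulated data for this comparison (14736 genes). Mean recovered differences were 1.49, 2.01, -1.50 and -2.00 for true values of 1.5, 2, -1.5 and -2 (50 genes per size). Of 14536 unchanged genes, 0 passed 2-fold. Both simulated arrays were built from the control array, with equal noise at every signal and no spread between cultures. That count therefore checks the steps and gives no error rate for these cultures. Python 3.11.15, numpy 2.4.6, pandas 2.3.3, scipy 1.17.1 and limma 3.58.1 (normexp) were used. Alternatives were 75th percentile, spike-in (7 probes) and no scaling, normexp with an offset of 50, the authors' table, dim probes kept or filtered more strictly (percentile 25), the mean over probes, and other size rules.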

Additional observations from a re-analysis of the deposited data

How the results depend on the processing

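No paired analysis was possible because each group had 1 array. No member past 2-fold changed sign under any alternative that gave it a value. Rgs2, Rgs4, Rgs8 and Gng4 stayed at least 2-fold lower under every alternative in which they were measured (Rgs4 between -3.13 and -2.91). The stricter filter on dim probes left out Gng4 and Rgs13. The count of members at least 2-fold lower was 12 with a 1.5-fold rule (8.64% of all genes) and between 4 and 8 otherwise. It was 4 with normexp (301 of all 14016 genes) and 8 with spike-in scaling (565 of 14016). The count at least 2-fold higher was 0 under spike-in (294 of 14016 genes), 75th percentile (341) or no scaling (336), under normexp (147) and under a 3-fold rule. It was 3 of the 56 members when dim probes were kept (1062 of 22146 genes, a similar share). With bounds counted it was 2, and 194 genes on the array had such a bound of at least 2-fold. Spike-in scaling moved the median of all genes to -0.09, that of Gα members to 0.066 and that of RGS members to -0.51. The cause was not tested. Among the differences of single members, 109 values moved by more than the spot error and 246 did not, and 3 of 45 members changed sign with the scaling or background correction (Gnaz, Gng12 and Rgs12). Signal over background limits Gna15, Gng8 and Gngt2, which lie in the dimmest of 5 signal classes.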

Other observations

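Some members had further probes above background in the control culture alone. Picking probes in this way favours a lower TTX signal in advance, so their direction is not read as a result. The Gnas probes at 174122337 and 174125482 on chromosome 2 (mm9) had signals of 14.4 and 21.9 in TTX, against 27.1 and 31.8 in control. Its brightest probe differed by -0.08. The third probe of Gng7 had 19.4 in TTX and 54.6 in control. The dimmest TTX signal still well above background was 19.7, so the sizes of these differences are not known. Whether these probes differ from the brightest probe of their gene was not tested.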
